A study of Homo sapiens with 20 samples.

Results

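Epithelioid hemangioendothelioma is a vascular sarcoma driven by 1 of 2 gene fusions, TAZ-CAMTA1 or YAP-TFE3, and the accessible chromatin found with each fusion was compared here. The comparison rests on the peak lists of the 2 fusions from ATAC-seq, in which the transposase Tn5 cuts accessible DNA and the fragments are sequenced. The TAZ-CAMTA1 list held 236893 peaks and the YAP-TFE3 list 235795, together 472688 of the 1407450 peaks of all 7 lists. Peaks of the fusions that overlapped by 1 bp or more were called shared. A peak was called one-sided if its summit −log10 p, the authors' significance at the highest point of the peak, was 6 or more and no peak of the other fusion lay within 1 kb of it. There were 357 one-sided TAZ-CAMTA1 peaks and 812 one-sided YAP-TFE3 peaks.

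TAZ and YAP are transcriptional coactivators at the end of the Hippo pathway. They do not bind DNA themselves and reach it through TEAD transcription factors, which their N-terminal parts contact, and both fusions keep this part. The paper proposes that the C-terminal parts of both fusions also help to set where they bind the genome. In TAZ-CAMTA1 this part comes from CAMTA1, a calmodulin-binding transcription activator. It brings a transactivating domain, TIG, ankyrin and IQ domains and a nuclear localization signal. In YAP-TFE3 it comes from TFE3, a transcription factor of the MiT family known for its control of lysosomal genes, and brings a transactivating domain together with a basic helix-loop-helix and a leucine zipper, the parts with which TFE3 dimerizes and binds DNA.

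All libraries were made from SW872, an established human liposarcoma line and not an endothelial cell, from 50000 cells each. The cells had been stably transduced with a retroviral vector and selected as pooled lines, and per the study's methods replicates came from separate transductions. The vectors were the empty vector (EV, 3 libraries), TAZ4SA (3) and YAP5SA (3), forms of full-length TAZ and YAP in which serines that the Hippo kinases phosphorylate are replaced by alanine, full-length CAMTA1 (3) and TFE3 (2), and both fusions, TAZ-CAMTA1 with 3 libraries and YAP-TFE3 with 3. Library titles of the YAP-TFE3 group name Yap5SA as the YAP part, and the title of 1 EV library marks it as redone. Each vector has 1 deposited list in hg19 coordinates, so no value has an error between libraries and no test was run. Intervals are 95% Wilson intervals unless stated otherwise. They cover counting error only and count each peak as independent, although some peaks are close neighbours. The sequencing depth of the lists is unknown. Since the libraries are bulk samples, fewer cells open at a site and less opening in every cell cannot be told apart.

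Most peaks of each fusion were found with the other. Of the TAZ-CAMTA1 peaks, 167675 overlapped a YAP-TFE3 peak, which is 70.8% of that list (70.6 to 71.0%). Of the YAP-TFE3 peaks, 179508 overlapped a TAZ-CAMTA1 peak, which is 76.1% of that list (76.0 to 76.3%). Counted at their full width and not by the bases that overlap, shared peaks held 91.5% of the bases of the TAZ-CAMTA1 list. For the YAP-TFE3 list it was 92.9%. The peaks that were not shared were short and weak. In both lists they had a median width of 100 bp, compared with 321 bp for shared TAZ-CAMTA1 peaks and 261 bp for shared YAP-TFE3 peaks. At the summit their −log10 p had a median of 3.86 with TAZ-CAMTA1 and 3.94 with YAP-TFE3, against 5.59 and 5.58 for shared peaks.

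Sharing rose with strength in both lists. Among peaks with a summit −log10 p under 4, 38.7% of the TAZ-CAMTA1 peaks and 48.3% of the YAP-TFE3 peaks were shared. Between 6 and 8 the shares were 98.2% and 96.8%. At 10 or more, 29146 of 29146 TAZ-CAMTA1 peaks and 32572 of 32582 YAP-TFE3 peaks were shared. The order of the lists turned along the way. Below 5 a larger share of the YAP-TFE3 peaks was shared, and from 5 upwards a larger share of the TAZ-CAMTA1 peaks.

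**Figure D1:**
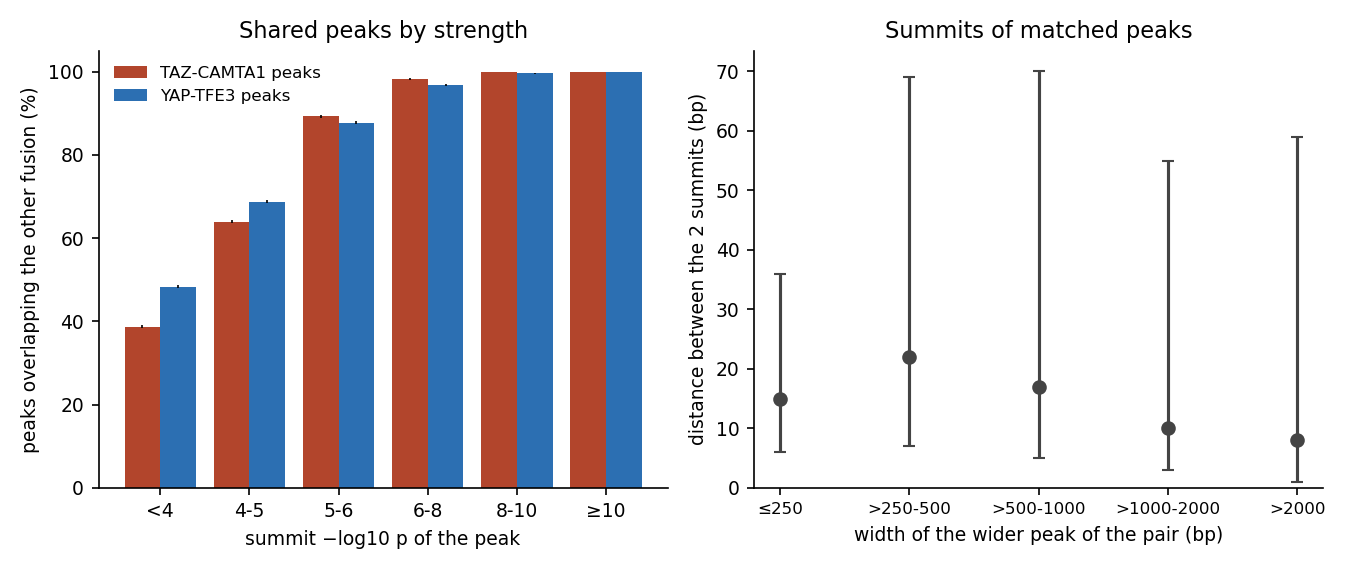
Left, percentage of the peaks of each fusion that overlap a peak of the other fusion, by the summit −log10 p of the peak, with Wilson 95% intervals; the shares climb from 38.7% and 48.3% below 4 to 98.2% and 96.8% between 6 and 8. Right, distance in bp between the summits of matched peaks by the width of the wider peak, as medians (points) and quartiles (lines); the medians lie between 8 and 22 bp. Overlap keeps the distance small for narrow peaks.

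Overlapping peaks formed 191927 pairs, since a wide peak of one fusion can cover several of the other. A TAZ-CAMTA1 peak overlapped 2 or more YAP-TFE3 peaks in 20222 cases, and those peaks had a median width of 1060 bp. The reverse, a YAP-TFE3 peak over 2 or more TAZ-CAMTA1 peaks, was less frequent, with 11235 cases and a median width of 855 bp. Peaks that overlapped exactly 1 peak of the other fusion, in both directions, made 126283 matched pairs and included 53.3% of the TAZ-CAMTA1 peaks and 53.6% of the YAP-TFE3 peaks.

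Within matched pairs the 2 fusions gave peaks of similar width with most summits within 50 bp of each other. Since these peaks overlap by choice, summits of narrow pairs cannot lie far apart. In 52313 pairs the wider peak was 250 bp or less. Pairs in which a peak overlapped several of the other fusion are left out here, and over all overlapping pairs the median width ratio was 1.08. The width of the TAZ-CAMTA1 peak over that of its YAP-TFE3 partner had a median of 1.03, with quartiles of 0.893 and 1.29. The TAZ-CAMTA1 peak was the wider in 57.3% of pairs and the YAP-TFE3 peak in 41.6%. In the 44049 pairs with a summit −log10 p of 6 or more on both sides the median ratio was 1.02, and 89.9% of these pairs differed in width by no more than 1.5 times, against 71.1% of all pairs. The median distance between the summits was 16 bp, with quartiles of 5 and 49 bp, and 75.7% of summits lay within 50 bp of each other. There was no net direction, as the median of the signed distance was 0 bp. Summits over 500 bp apart were found in 1100 pairs (0.871%). These were wide peaks: where the wider peak of the pair exceeded 2000 bp, 8.64% of pairs had summits over 500 bp apart, although the median distance there was 8 bp.

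The order of the peaks by size was also alike. The size of a peak is given here as its area, the area under the authors' significance curve, and it was ranked within each list. Over all matched pairs the rank correlation (Spearman) of the areas was 0.828, as a description across 126283 sites that share their libraries. It was 0.947 where both peaks reached a summit −log10 p of 6 and 0.348 where neither did. The median change of rank was 6.86 percentile points. TAZ-CAMTA1 peaks ranked more than 25 points higher in 11156 pairs, and YAP-TFE3 peaks in 8739.

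The 3 matched pairs with the largest change of rank in each direction were wide peaks with one fusion and narrow, barely called ones with the other. On chromosome 8, a TAZ-CAMTA1 peak from 52840715 to 52841531 with an area of 1658 (percentile 84.9) overlapped a YAP-TFE3 peak of 98 bp with an area of 20.7 (percentile 0.851). The site was also in the EV, TAZ4SA, CAMTA1 and TFE3 lists and was missing from YAP5SA. The next pairs in this direction were on chromosome 5, with a TAZ-CAMTA1 peak from 10518311 to 10519517 of area 1090 against 20.1, and on chromosome 17, with one from 37238324 to 37239292 of area 1211 against 21.4. Both were in the EV, CAMTA1 and TFE3 lists and neither was in TAZ4SA. In the other direction, a YAP-TFE3 peak on chromosome 5 from 15260596 to 15262068 had an area of 2419 (percentile 87.9), against 24.4 (percentile 5.19) for its TAZ-CAMTA1 partner. This site was in the TAZ4SA and YAP5SA lists and was missing from EV, CAMTA1 and TFE3. A YAP-TFE3 peak on chromosome 13 from 80284560 to 80285392 had an area of 1180 against 20.7, and one on chromosome 9 from 109514869 to 109515756 had 1109 against 20.7. The 3 sites higher with YAP-TFE3 all lacked an EV peak and had a YAP5SA peak, whereas the 3 sites higher with TAZ-CAMTA1 all had an EV peak. The contrast was smaller over all pairs that moved by more than 25 points. An EV peak was at 40.5% of those higher with TAZ-CAMTA1 and 25.2% of those higher with YAP-TFE3, against 58.9% of all matched pairs. For YAP5SA the shares were 47.4% and 51.1%, against 68.0%.

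The relative size of matched peaks differed with the lists in which a site was found. All 126283 matched pairs were grouped by an overlap of either peak with an EV, a TAZ4SA or a YAP5SA peak, and the log2 ratio of their areas, TAZ-CAMTA1 over YAP-TFE3, was -0.05 at the median of all pairs. Sites with an EV peak and neither a TAZ4SA nor a YAP5SA peak had a median of 0.29 (n = 9813), and 61.5% of them were above the median of all pairs. Sites without an EV peak that were in both TAZ4SA and YAP5SA had a median of -0.55 (n = 7122), and 35.4% of them were above it. The former leaned to TAZ-CAMTA1 and the latter to YAP-TFE3. Over all pairs, sites in none of the 3 lists showed no such lean, with a median of 0.01 (n = 25870). Nor did sites in YAP5SA alone, with -0.03 (n = 16531), while TAZ4SA alone had -0.27 (n = 2442). Sites in all 3 lists were the largest group and had a median of -0.11 (n = 44895). The quartiles of every group over all pairs reached to both sides of 0. Where either peak reached a summit −log10 p of 6, all groups without EV leaned to YAP-TFE3. Medians there were -0.59 in none of the 3 (n = 1882) and -0.37 in YAP5SA alone (n = 3112). TAZ4SA alone had -1.07 (n = 363) and TAZ4SA with YAP5SA had -0.99 (n = 2619). EV alone had 0.35 there (n = 2622), and all such pairs had -0.10. These ratios compare 2 lists of unknown depth, and the grouping was chosen after their values were seen.

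**Figure D2:**
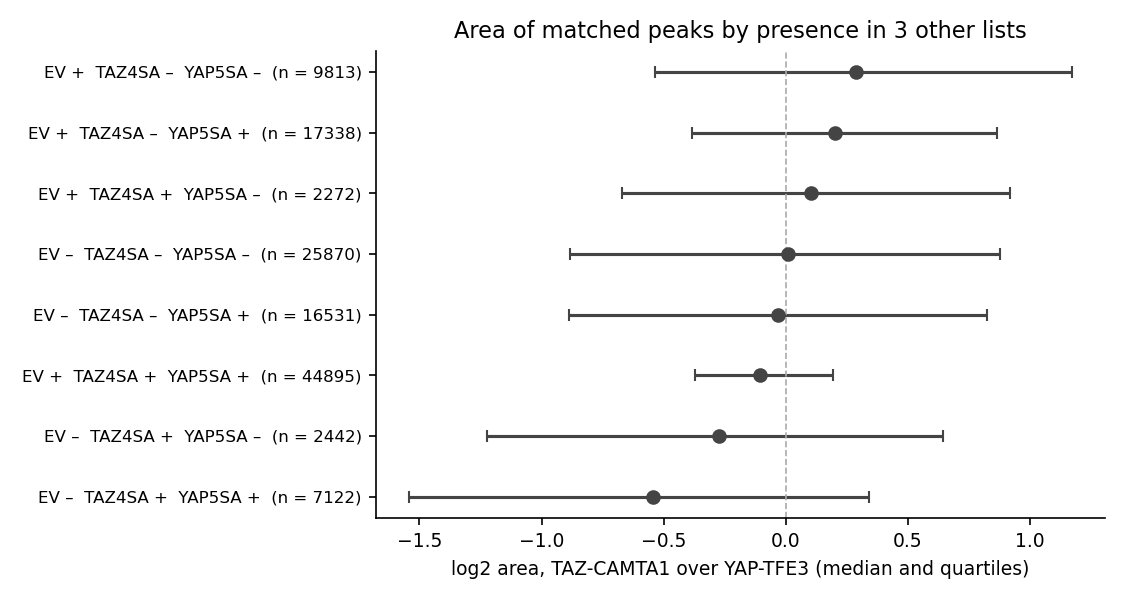
Median (points) and quartiles (lines) of the log2 ratio of peak areas, TAZ-CAMTA1 over YAP-TFE3, in all matched pairs, grouped by presence (+) or absence (–) of the site in the EV, TAZ4SA and YAP5SA lists. The medians run from 0.29 at sites with EV alone to -0.55 at sites with TAZ4SA and YAP5SA and no EV, and all quartile ranges include 0.

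One-sided peaks were rare with both fusions and came more often from YAP-TFE3. They made up 0.477% of the 74802 TAZ-CAMTA1 peaks with a summit −log10 p of 6 or more (0.430 to 0.529%) and 1.01% of the 80465 such YAP-TFE3 peaks (0.942 to 1.08%). The share was 2.11 times higher for YAP-TFE3 (1.87 to 2.39, counting error only). This ratio moved with the limit on strength, to 1.12 at a summit −log10 p of 4 or more and 6.26 at 8 or more, where 10 TAZ-CAMTA1 and 68 YAP-TFE3 peaks were left. The other peaks of that strength overlapped the other fusion, save 170 TAZ-CAMTA1 and 273 YAP-TFE3 peaks that lay within 1 kb of one.

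The rule for one-sided peaks used their strength and their distance to the other list, so these values describe the choice. The median summit −log10 p was 6.40 for TAZ-CAMTA1 and 6.55 for YAP-TFE3, and the maximum 8.95 and 15.2. Peaks reaching 8 numbered 10 and 68, and those reaching 10 numbered 0 and 8. The one-sided peaks with the highest summit −log10 p thus came from YAP-TFE3, whose whole list also had the higher median, 4.87 against 4.69. Around the threshold, the weakest members stood at 6.00017 and 6.00025 and the strongest peaks just short of it at 5.9985 and 5.99777. Between 5.5 and 6 there were 479 TAZ-CAMTA1 and 804 YAP-TFE3 peaks without the other fusion within 1 kb, and between 6 and 6.5 there were 208 and 382. The nearest members to the distance limit were 1004 and 1001 bp from the other fusion, and the nearest peaks left out were 995 and 999 bp from it.

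One-sided YAP-TFE3 peaks were narrower and stood farther from the other fusion. The median width was 336 bp, compared with 428 bp for one-sided TAZ-CAMTA1 peaks, and 727 and 858 bp for the peaks of that strength that overlapped the other fusion. The nearest TAZ-CAMTA1 peak lay a median of 11474.5 bp away, and the nearest YAP-TFE3 peak a median of 5062 bp from a one-sided TAZ-CAMTA1 peak. A distance over 50 kb was found for 153 YAP-TFE3 and 5 TAZ-CAMTA1 peaks. Other peaks of the same list within 50 kb to either side numbered 8 at the median for one-sided YAP-TFE3 peaks, against 16 for YAP-TFE3 peaks that overlapped TAZ-CAMTA1. For TAZ-CAMTA1 the corresponding medians were 16 and 17. One-sided YAP-TFE3 peaks were therefore in sparsely peaked stretches, and one-sided TAZ-CAMTA1 peaks in stretches with the usual number of peaks.

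The 5 other lists, which the rule did not use, divided the one-sided peaks of the 2 fusions. An EV peak overlapped 218 of the 357 one-sided TAZ-CAMTA1 peaks, or 61.1% (55.9 to 66.0%). With YAP-TFE3 it was 108 of 812, or 13.3% (11.1 to 15.8%). The difference was 47.8 percentage points (Newcombe 95% interval, 42.0 to 53.1). For TAZ4SA the order was the reverse. A TAZ4SA peak overlapped 51 one-sided TAZ-CAMTA1 peaks (14.3%) and 332 one-sided YAP-TFE3 peaks (40.9%), a difference of -26.6 points (-31.3 to -21.4). One-sided peaks of the fusion that carries TAZ were thus less often found with activated TAZ than those of the fusion that carries YAP.

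For the C-terminal partners, a CAMTA1 peak overlapped 260 one-sided TAZ-CAMTA1 peaks (72.8%) and 485 one-sided YAP-TFE3 peaks (59.7%), a difference of 13.1 points (7.23 to 18.6). A TFE3 peak overlapped 218 (61.1%) and 234 (28.8%), a difference of 32.2 points (26.2 to 38.0). A peak of TFE3, a part of YAP-TFE3, was therefore more frequent at the one-sided sites of the other fusion. For YAP5SA the difference was small, with 166 peaks (46.5%) and 421 peaks (51.8%). That difference was -5.35 points with an interval from -11.5 to 0.871, which includes 0, and it was -10.1 (-13.6 to -6.48) with equal numbers of peaks in every list and -7.05 (-13.3 to -0.746) without runs of 3 or more one-sided peaks. At a limit of 8 in place of 6 each of the 5 differences kept its sign and was larger, for example 77.9 points for EV and 57.4 for TFE3, from 10 TAZ-CAMTA1 peaks.

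As background, peaks with a summit −log10 p of 6 or more were nearly all found in most of the lists. Of all such TAZ-CAMTA1 peaks 93.9% were in EV, 77.1% in TAZ4SA, 99.0% in CAMTA1, 93.8% in YAP5SA and 97.6% in TFE3. For YAP-TFE3 the shares were 89.2%, 77.2%, 98.2%, 93.3% and 95.3%. One-sided peaks of both fusions were below this background in each list, and they are weaker than most of it. Among peaks of like strength, with a summit −log10 p from 6 to 7, that overlapped the other fusion, EV held 80.0% of the TAZ-CAMTA1 and 72.2% of the YAP-TFE3 peaks, and TAZ4SA held 49.2% and 47.4%. TAZ4SA and TFE3 have the shortest lists, with 152702 and 156421 peaks. With 152702 peaks taken from every list, the fusions included, 1137 TAZ-CAMTA1 and 1966 YAP-TFE3 peaks were one-sided, and the difference between them was 43.3 points for EV, -24.0 for TAZ4SA and 25.7 for TFE3. With only the other lists cut to that number, an alternative chosen after seeing the data, it was 45.6, -26.6 and 30.5. The shares themselves moved more. For one-sided YAP-TFE3 peaks the share in EV was 7.39% with other-list peaks of 4 or more and 20.1% with equal numbers in every list, and the share in TFE3 was 15.1% and 44.0%. For one-sided TAZ-CAMTA1 peaks the share in TAZ4SA was 21.7% with equal numbers, and that in TFE3 was 40.1% with other-list peaks of 4 or more.

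**Figure D3:**
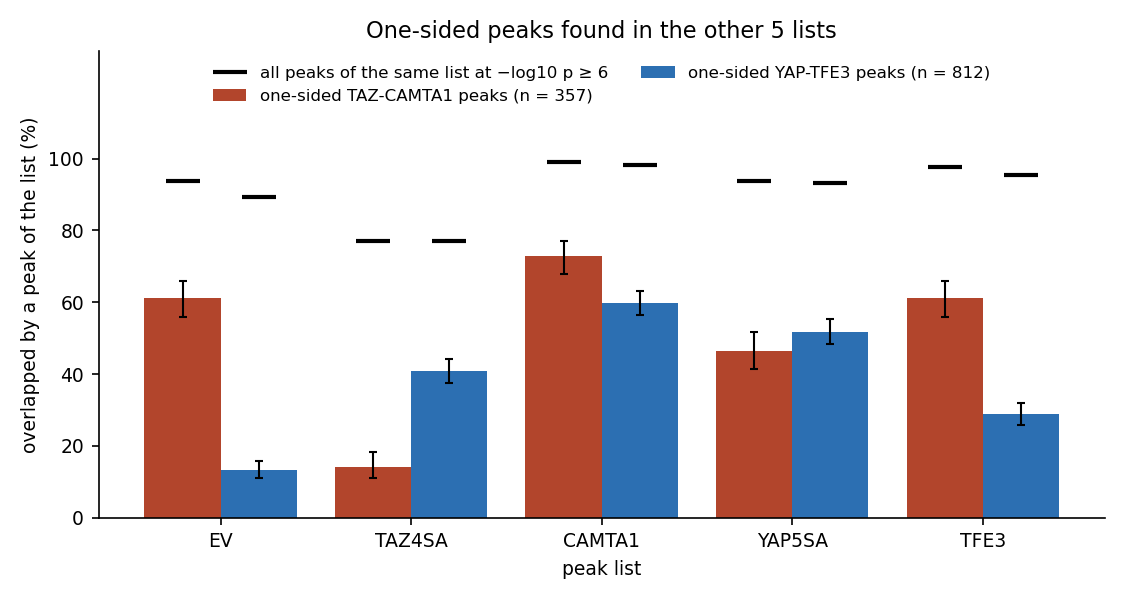
Percentage of one-sided TAZ-CAMTA1 peaks (n = 357) and one-sided YAP-TFE3 peaks (n = 812) overlapped by a peak of each of the other 5 lists, with Wilson 95% intervals; black lines mark the same share of all peaks of that fusion with a summit −log10 p of 6 or more. EV holds 61.1% against 13.3%, TAZ4SA 14.3% against 40.9% and YAP5SA 46.5% against 51.8%. The intervals cover counting error only, and those for YAP5SA overlap.

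The difference in EV widened with the strength of the peak. Among all peaks without the other fusion within 1 kb and with a summit −log10 p under 4, EV overlapped 10.2% of the TAZ-CAMTA1 peaks and 5.96% of the YAP-TFE3 peaks. Between 5 and 6 the shares were 36.0% and 10.1%. At 7 or more, EV overlapped 54 of 60 TAZ-CAMTA1 peaks (90.0%, 79.9 to 95.3%) and 39 of 226 YAP-TFE3 peaks (17.3%). The strongest one-sided TAZ-CAMTA1 sites were thus in EV about as often as all TAZ-CAMTA1 peaks of 6 or more (93.9%). CAMTA1 and TFE3 overlapped 54 and 53 of the same 60 (90.0% and 88.3%), below their 99.0% and 97.6% of all TAZ-CAMTA1 peaks of 6 or more. The strongest one-sided YAP-TFE3 sites were mostly not in EV, which held 89.2% of all YAP-TFE3 peaks of 6 or more. The share in TAZ4SA rose from 9.63% to 48.7% of the YAP-TFE3 peaks over the same range, and from 6.56% to 12 of 60 of the TAZ-CAMTA1 peaks. TAZ4SA held 77.2% of all YAP-TFE3 peaks of 6 or more and 77.1% of all such TAZ-CAMTA1 peaks. This split by strength was chosen after the values were seen.

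**Figure D4:**
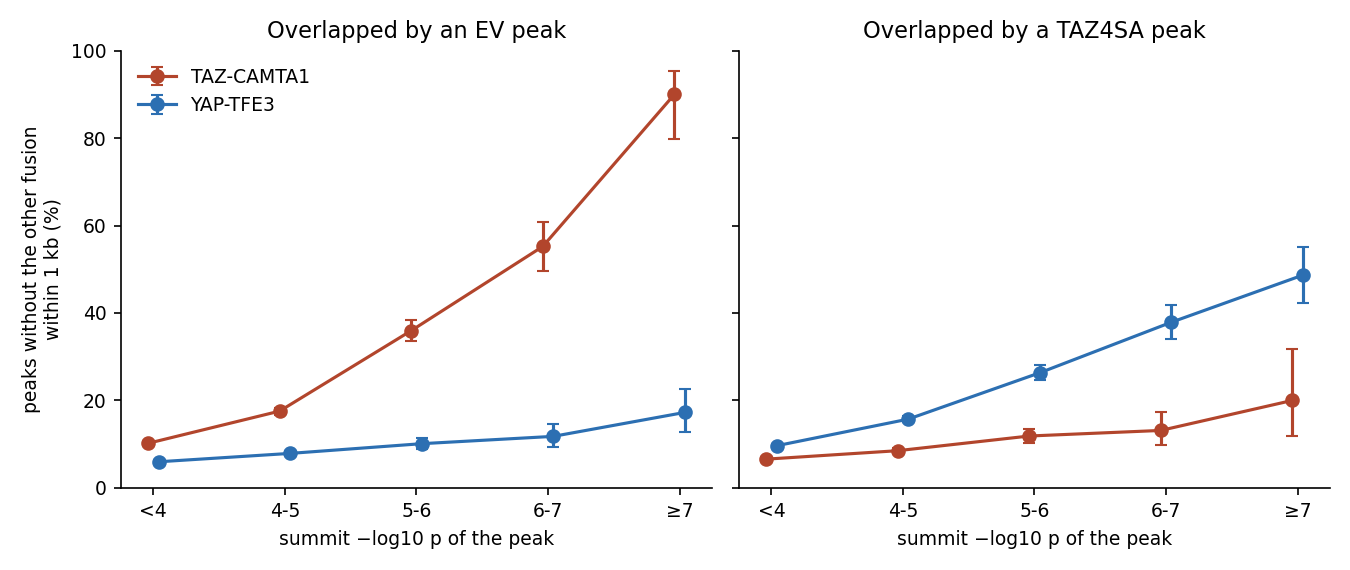
Percentage of peaks with no peak of the other fusion within 1 kb that are overlapped by an EV peak (left) or a TAZ4SA peak (right), by the summit −log10 p of the peak, with Wilson 95% intervals. At 7 or more EV holds 90.0% of the TAZ-CAMTA1 peaks against 17.3% of the YAP-TFE3 peaks, and TAZ4SA holds 12 of 60 against 48.7%.

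Split by EV and its own full-length proteins, TAZ-CAMTA1 had its largest class of one-sided peaks at sites with EV and CAMTA1 peaks and no TAZ4SA peak. This class held 144 peaks (40.3%, 35.4 to 45.5%), against 18.3% of all TAZ-CAMTA1 peaks with a summit −log10 p of 6 or more. That background was mostly of stronger peaks. Those overlapping YAP-TFE3 had a median summit −log10 p of 8.89, against 6.40 for one-sided peaks. Between 6 and 7, TAZ4SA held 49.2% of the TAZ-CAMTA1 peaks overlapping YAP-TFE3, against 77.1% of all at 6 or more. Class shares among peaks of like strength were not computed. Sites with a CAMTA1 peak only followed with 68 (19.0%, background 3.75%) and sites with none of the 3 with 61 (17.1%, background 0.421%). Sites with all 3 numbered 39 (10.9%), although they made up 75.1% of the background. Sites with EV alone numbered 33 (9.24%, background 0.440%). The other 3 classes held 12 peaks in all. A TAZ4SA peak without an EV peak was present at 10 of the 357 sites, and was uncommon in the background as well. Of these sites, 9 had a CAMTA1 peak (2.52%, background 1.92%) and 1 had none (0.280%, background 0.0508%).

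YAP-TFE3 was split by other lists, EV, YAP5SA and TFE3, of other lengths, so its classes are not set against those of TAZ-CAMTA1. The largest class of one-sided peaks, 317 (39.0%, 35.7 to 42.4%), was in none of the 3, against 1.49% of all YAP-TFE3 peaks of 6 or more. Of these 317 peaks 113 were in CAMTA1, a smaller part than in the background, where it was 685 of 1198. The background was of stronger peaks here too, with a median of 9.02 for those overlapping TAZ-CAMTA1, against 6.55 for one-sided peaks. YAP5SA alone followed with 216 (26.6%, background 1.63%), and YAP5SA with TFE3 but no EV held 125 (15.4%, background 6.13%). Sites with all 3 numbered 53 (6.53%), although they made up 84.4% of the background. Sites with TFE3 alone numbered 46 (5.67%, background 1.52%). The other 3 classes held 55 peaks in all. Presence in TFE3 without YAP5SA was thus a small share, here and in the background. The class with EV and TFE3 but no YAP5SA held 10 peaks (1.23%, background 3.26%).

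Over the same lists for both fusions, a peak of TAZ4SA and of YAP5SA without one of EV was found at 194 one-sided YAP-TFE3 peaks (23.9%, against 3.87% of all YAP-TFE3 peaks of that strength). With TAZ-CAMTA1 it was found at 10 (2.80%, against 1.77%). An EV peak with neither TAZ4SA nor YAP5SA was found at 104 one-sided TAZ-CAMTA1 peaks (29.1%, against 3.45%). With YAP-TFE3 it was found at 18 (2.22%, against 2.61%). Each pattern was thus well above its background with one fusion and near it with the other, and each held a minority of the one-sided peaks. These backgrounds were mostly of stronger peaks, and the patterns were not counted among peaks of like strength. In none of the 5 other lists were 179 one-sided YAP-TFE3 peaks (22.0%, against 0.577%) and 38 one-sided TAZ-CAMTA1 peaks (10.6%, against 0.168%).

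One-sided peaks were chosen for their strength with the fusion, so a lower value in another list is no finding, and the strengths there are given as a description. At the 218 one-sided TAZ-CAMTA1 sites with an EV peak, the median summit −log10 p was 6.52 with TAZ-CAMTA1 and 4.46 with EV, and 10 of the EV peaks (4.59%) reached 6. At all TAZ-CAMTA1 peaks of 6 or more with an EV peak, 60.3% of the EV peaks did. At the 260 sites with a CAMTA1 peak, 54 of the CAMTA1 peaks (20.8%) reached 6, against 82.7%. At the 332 one-sided YAP-TFE3 sites with a TAZ4SA peak, the median was 6.64 with YAP-TFE3 and 5.05 with TAZ4SA, and 106 of the TAZ4SA peaks (31.9%) reached 6, against 58.4% at all YAP-TFE3 peaks of that strength with a TAZ4SA peak. Of the 421 YAP5SA peaks at one-sided YAP-TFE3 sites 138 (32.8%) reached 6, against 71.1%, and 96 were stronger than the YAP-TFE3 peak. The 108 EV and 234 TFE3 peaks there had medians of 4.09 and 4.03, and none of them reached 6.

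The one-sided TAZ-CAMTA1 peak with the largest area lay on chromosome 12 from 108793268 to 108795146. Its area was 2094, against 170 with EV, 168 with CAMTA1 and 91.2 with TFE3. TAZ4SA and YAP5SA had no peak there, and the nearest YAP-TFE3 peak was 19503 bp away. The second, on chromosome 4 from 99490045 to 99490847, had an area of 1670, against 767 with EV, 208 with CAMTA1 and 23.7 with TFE3. The third, on chromosome 2 from 69469708 to 69470465, had 1543, against 99.2 with EV, 625 with CAMTA1 and 171 with TFE3. All 3 sites had EV, CAMTA1 and TFE3 peaks and no TAZ4SA or YAP5SA peak. Their TAZ-CAMTA1 areas are large by the choice of sites.

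The next 7 by area ranged from 1528 down to 1327. On chromosome 15, the peak from 63378420 to 63379642 had 1528, against 211 with EV, 293 with CAMTA1, 133 with YAP5SA and 88.2 with TFE3. The peak on chromosome 9 from 90574761 to 90575979 was an exception, as its area of 1499 was exceeded by that of YAP5SA, 2629, with 42.9 in EV. On chromosome 11, the peak from 36446998 to 36447788 had 1479, against 272 with EV and 754 with CAMTA1. On chromosome 5, the peak from 157850557 to 157851568 had 1445, against 866 with EV, 493 with CAMTA1, 135 with YAP5SA and 565 with TFE3. It was the site nearest in area to the empty vector among the first 10. The last 3 were on chromosome 15 from 57984371 to 57985223 (1400, EV 109), chromosome 7 from 68748365 to 68749125 (1352, EV 419) and chromosome 5 from 132477462 to 132478190 (1327, EV 359). All 10 had an EV and a CAMTA1 peak, and only the last had a TAZ4SA peak, with an area of 64.4. Of all TAZ-CAMTA1 peaks with a summit −log10 p of 6 or more, 93.9% were in EV, 99.0% in CAMTA1 and 77.1% in TAZ4SA. Presence in EV and CAMTA1 was therefore near the general share.

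In the smaller classes, the largest one-sided TAZ-CAMTA1 peak in none of the other 5 lists lay on chromosome 11 from 113064457 to 113065288, with an area of 1080 and its nearest YAP-TFE3 peak 7908 bp away. The largest with CAMTA1 and without EV and TAZ4SA lay on chromosome 16 from 381310 to 381995, with 1183 against 218 with CAMTA1, 590 with YAP5SA and 183 with TFE3. The largest with EV but without TAZ4SA and CAMTA1 lay on chromosome 5 from 138514117 to 138514899, with 889 against 69.9 with EV and 101 with YAP5SA. The largest with all 3 after the one on chromosome 5 lay on chromosome 12 from 2420100 to 2420830, where 1307 stood against 957 with CAMTA1 and 34.6 with TAZ4SA. The others named by the rule had areas from 796 to 1263.

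The one-sided YAP-TFE3 peak with the largest area, and the highest summit −log10 p at 15.2, lay on chromosome 5 from 94416771 to 94418294. Its area was 4294, against 240 with TAZ4SA, 233 with YAP5SA and 59.3 with CAMTA1. EV and TFE3 had no peak there, and the nearest TAZ-CAMTA1 peak was 44573 bp away. The second, on chromosome 14 from 20386123 to 20387564, had an area of 3889, against 1584 with YAP5SA and 52.8 with TAZ4SA. The third, on chromosome 5 from 74897361 to 74898369, had 2996, against 339 with CAMTA1, 42.6 with TAZ4SA and 27.2 with YAP5SA. All 3 were in both TAZ4SA and YAP5SA and in neither EV nor TFE3.

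Among the next 7, from 2810 down to 2210, EV had a peak at the fourth and the eighth. The fourth, on chromosome 13 from 103753822 to 103755699, was in all lists but TAZ-CAMTA1, with 2810 against 744 with YAP5SA, 514 with TAZ4SA, 71.0 with EV, 50.8 with CAMTA1 and 25.7 with TFE3. The eighth, on chromosome 7 from 141895531 to 141896571, had 2310 against 793 with TAZ4SA, 309 with CAMTA1, 294 with YAP5SA and 39.5 with EV. At both sites the peaks of TAZ4SA and YAP5SA were larger than that of EV.

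The sixth, on chromosome 2 from 151537739 to 151538861, had an area of 2417, against 62.4 with TAZ4SA, 52.1 with TFE3, 37.7 with YAP5SA and 36.2 with CAMTA1. CAMTA1 gave the sole other peak at the fifth, on chromosome 3 from 59432483 to 59433403 (2473 against 25.8), and at the ninth, on chromosome 12 from 78241518 to 78242354 (2250 against 431). The seventh, on chromosome 12 from 88703129 to 88704196 with an area of 2393, and the tenth, on chromosome 8 from 139888445 to 139889645 with 2210, were in none of the other lists. The seventh stood 166252 bp from the nearest TAZ-CAMTA1 peak and 166258 bp from the nearest EV peak, but 9558 bp from a TAZ4SA peak. Of the first 10, thus, 8 had no EV peak and 6 had both a TAZ4SA and a YAP5SA peak. Of all YAP-TFE3 peaks with a summit −log10 p of 6 or more, 89.2% had an EV peak and 75.5% had both others.

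In the smaller classes, the largest YAP-TFE3 peak with YAP5SA and TFE3 and no EV after the sixth lay on chromosome 2 from 127270217 to 127271155, with 2108 against 929 with TAZ4SA, 512 with CAMTA1, 369 with YAP5SA and 178 with TFE3. On chromosome 8, the peak from 66402756 to 66403545 had 1806, against 1268 with YAP5SA. The largest with TFE3 and neither EV nor YAP5SA lay on chromosome 5 from 96965030 to 96965340, with 1680 against 26.1 with TFE3 and 60.3 with CAMTA1. The others named by the rule had areas from 1168 to 1785.

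Most one-sided peaks of both fusions were single sites, and the longer runs were of YAP-TFE3. With neighbours less than 50 kb apart joined, the 357 TAZ-CAMTA1 peaks formed 319 single sites and 19 runs of 2. The 812 YAP-TFE3 peaks formed 645 single sites, 51 runs of 2, 11 of 3, 4 of 4, 1 of 5 and 1 of 11. Runs of 3 or more were thus found for YAP-TFE3 and not for TAZ-CAMTA1, which also had fewer one-sided peaks.

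The run of 11 lay on chromosome 5 from 94359108 to 94423571, over 64464 bp, and included the largest one-sided peak. The stretch held 46 YAP-TFE3 peaks, against 1 with TAZ-CAMTA1, 4 each with EV and YAP5SA, 3 with CAMTA1, 2 with TAZ4SA and 0 with TFE3. The run of 5, also on chromosome 5, was compact, from 96961982 to 96965340 (3359 bp), with 6 YAP-TFE3 peaks, 1 each with CAMTA1 and TFE3, and none in the other 4 lists. Both are stretches in which accessibility over several neighbouring sites was called with YAP-TFE3 and hardly with any other vector. A run of 4 on chromosome 12 from 88693299 to 88765429, with 10 YAP-TFE3 peaks, 2 of CAMTA1, 1 each of TAZ4SA and YAP5SA, and 0 of TAZ-CAMTA1, EV and TFE3, included the seventh peak above.

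**Figure D5:**
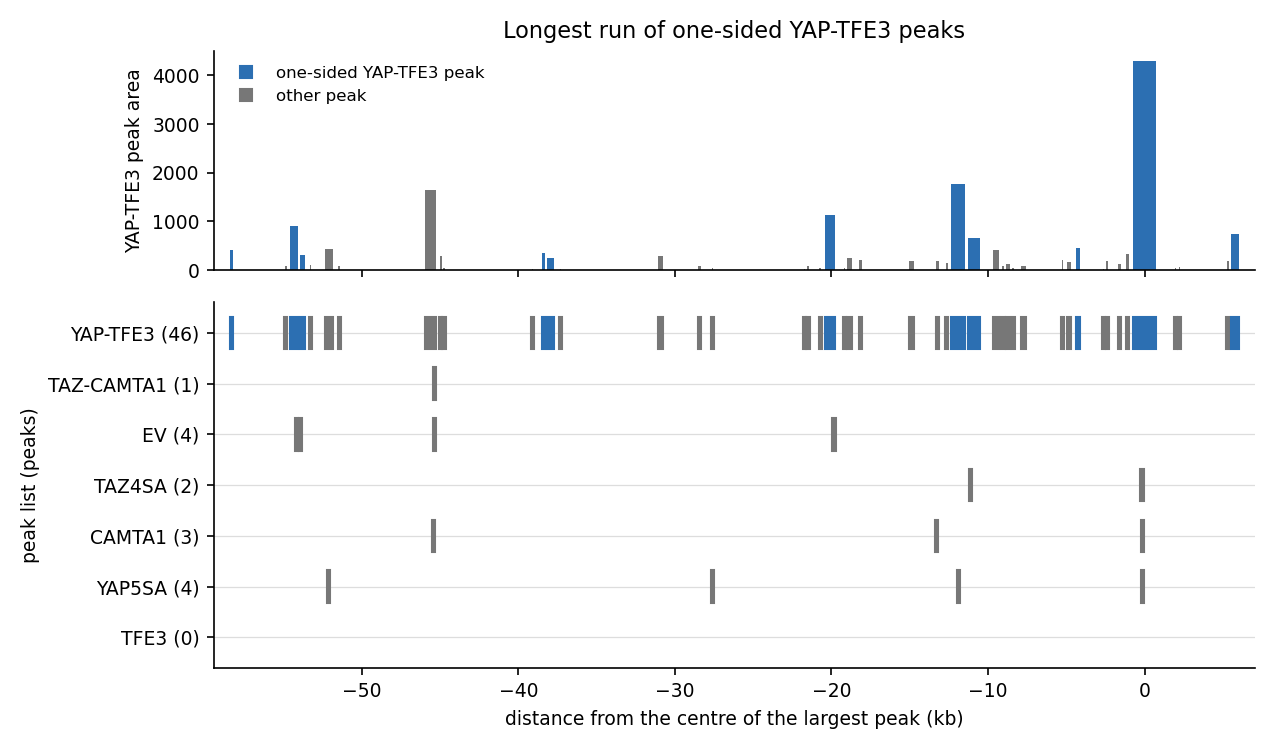
The longest run of one-sided YAP-TFE3 peaks, by distance in kb from the centre of its largest peak; above, the area of each YAP-TFE3 peak, and below, the peaks of all 7 lists as ticks of equal height, drawn at least 0.2 kb wide, with their number. YAP-TFE3 has 46 peaks in the stretch, 11 of them one-sided (blue), and the other lists have 0 to 4.

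The other runs of 4 were on chromosomes 2 and 10. From 3795423 to 3855775 on chromosome 2 there were 44 YAP-TFE3 peaks and 11 of TAZ-CAMTA1, with 7 of EV, 17 of TAZ4SA, 19 of YAP5SA, 23 of CAMTA1 and 4 of TFE3. From 11249250 to 11278479 on chromosome 10 there were 13 with YAP-TFE3, 3 each with TAZ4SA and CAMTA1, 2 with YAP5SA and 0 with TAZ-CAMTA1, EV and TFE3. From 60633486 to 60711437 on chromosome 2 there were 19 with YAP-TFE3 and 2 with TAZ-CAMTA1, with 3 of EV, 9 of TAZ4SA, 8 of YAP5SA, 10 of CAMTA1 and 4 of TFE3. In the 2 stretches on chromosome 2 every list had peaks, and in the one on chromosome 10 TAZ-CAMTA1, EV and TFE3 had none.

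Across the chromosomes, the share of strong peaks that were one-sided was highest for YAP-TFE3 on chromosome 4, with 58 of 2738 peaks (2.12%, 1.64 to 2.73%). It was lowest on chromosome 21, with 0 of 885, which allows a share of up to 0.432%. Chromosome 16 was next, with 15 of 3239 (0.463%, 0.281 to 0.763%). For TAZ-CAMTA1, chromosome 19 had 1 of 2868 peaks (0.0349%) and chromosome 21 had 1 of 857 (0.117%). The densities of peaks in windows of 100 kb showed a difference in the other direction as well. The 2 lists had the same median of 7 peaks over the 22603 windows with a peak of either. TAZ-CAMTA1 had 20 or more peaks above YAP-TFE3 in 27 windows, and YAP-TFE3 had 20 or more above TAZ-CAMTA1 in 13. The window that leaned most to TAZ-CAMTA1, on chromosome 11 from 116300001 to 116400000, held 42 of its peaks against 12 of YAP-TFE3, with 25 of EV, 28 of CAMTA1, 22 of YAP5SA, 13 of TFE3 and 10 of TAZ4SA. The one that leaned most to YAP-TFE3, on chromosome 10 from 11200001 to 11300000, held 42 of its peaks against 7 of TAZ-CAMTA1, with 7 of EV, 15 of TAZ4SA, 11 of YAP5SA, 19 of CAMTA1 and 6 of TFE3. The windows were chosen after their values were seen.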

How the data were processed

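ATAC-seq of 20 libraries in 7 vector groups was available as 7 peak lists, 1 per vector, in hg19. According to the methods of the study, the authors removed adapters with NGmerge, aligned with BWA-MEM and called peaks with Genrich in ATAC mode, without PCR duplicates, blacklisted regions, the mitochondrial genome and unplaced contigs. Those methods describe calls on each replicate and a later consensus set, whereas 1 list per vector was deposited. Which step the lists come from, and how libraries were combined in them, is not stated. The submitters' processing notes name another aligner and a mouse build, which do not match these lists. The signal of a peak deposited by the authors is the area under the significance curve, and its strength is the deposited −log10 p of the summit. The depth of each library is not given in the sources used here.

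Overlaps, distances, matched pairs and intervals were computed in Python 3 with numpy, pandas and scipy, and tested on simulated intervals. A site's value in another list is that of the overlapping peak with the largest area. Rank is the percentile of area within a list. Named sites are the 10 one-sided peaks with the largest area in each direction, the 3 largest of each class holding 5% or more of the one-sided peaks, the 3 matched pairs with the largest change of rank in each direction, and the 3 longest runs, with equal runs added. Peaks per window of 100 kb were counted by summit. The alternatives were other overlap, distance and −log10 p limits, equal numbers of peaks and autosomes only. The values of a few of the named sites are given as a range. Members and lists were chosen with earlier results of these data known. The reference at hand is of another build, so genes, motifs and sequences at these sites were not analysed here.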

Additional observations from a re-analysis of the deposited data

How the results depend on the processing

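The shares of shared peaks were 51.0% of TAZ-CAMTA1 and 51.2% of YAP-TFE3 peaks when 50% of both peaks had to overlap, and were 76.6% and 78.1% with a summit −log10 p of 4 or more in both lists. Equal numbers of peaks and autosomes alone left them within their intervals. The median width ratio was 1.08 over all overlapping pairs and 1.02 where both peaks reached 6. The rank correlation was 0.810 by summit −log10 p and 0.947 where both peaks reached 6, and the summit distance was 10 bp there and 17 bp for peaks of 1000 bp or less.

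The numbers of one-sided peaks depended strongly on the −log10 p limit, and YAP-TFE3 had the larger share in each setting. At 4 or more there were 10878 TAZ-CAMTA1 and 12743 YAP-TFE3 peaks, a ratio of shares of 1.12, and at 8 or more 10 and 68, a ratio of 6.26. At 5 kb, TAZ-CAMTA1 kept 180 and the ratio was 3.00. With the same number of top peaks from each list (74802) the ratio was 1.61. Without the 274 of 5489 bins of 500 kb with the most weak peaks, with no overlap as the limit, or on autosomes, it stayed within its interval.

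The differences between the fusions in EV, TAZ4SA, CAMTA1, YAP5SA and TFE3 kept their sign in the 7 alternatives tried. At a limit of 8 they were 77.9, -37.4, 35.3, -11.8 and 57.4 percentage points, from 10 TAZ-CAMTA1 peaks. For TFE3 the difference was 24.9 points with other-list peaks of 4 or more and 25.7 with equal numbers of peaks. Leaving out runs of 3 or more one-sided peaks, an alternative chosen after seeing the data, gave 47.4 points for EV.

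No paired analysis was possible because each vector has a single list, and leaving out single libraries was not run for the same reason. Genes and motifs at one-sided peaks, and their distance to transcription starts, were not analysed here.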
